A study of Brassica napus with 2 samples.

Results

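Receptor-like and wall-associated kinases other than those annotated as leucine-rich repeat, brassinosteroid or somatic embryogenesis receptors were described in seeds of *Brassica napus*. The members were chosen by words in the Swiss-Prot description of each assembled transcript (unigene): receptor-like protein kinase, receptor-like serine/threonine-protein kinase, receptor kinase, PERK, wall-associated or cysteine-rich receptor, on condition that the authors had assigned a *B. napus* gene to it. The rule found 378 of the 50366 unigenes, and these lay on 274 assigned genes. RNA of whole, field-grown seeds was sequenced from the brown-seeded inbred line Cy2B (genotype *yy*) and from the yellow-seeded line Cy2Y (genotype *YY*), a near-isogenic pair bred by repeated selfing from 1 heterozygous plant. The seeds were 26 days old, counted from flowering in the labels and from pollination in the study's methods. There was 1 library per line, so the comparison has no replicate check, and every test in the text compares the reads of these libraries and not the lines. The libraries held 23575447 reads in brown and 23236592 reads in yellow, as rounded estimated counts. In a whole seed, fewer cells of a type and less RNA per cell cannot be told apart.

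Plant receptor-like kinases carry an outer domain that binds a ligand, a stretch that crosses the plasma membrane, and an inner kinase domain that passes the signal on. Wall-associated kinases (WAKs) bind pectin of the cell wall, the FERONIA group (CrRLK1L, with malectin-like domains) binds RALF peptides, lectin receptor kinases carry a legume-type (L-type) or a mannose-binding-type (G-type) lectin domain, and the proline-rich PERKs have an outer domain like that of wall extensins. In *Arabidopsis* seeds, HAIKU2 promotes endosperm growth and ALE2 the formation of the embryo's surface layer.

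The members read at low levels. Their median mean level was 1.09 RPKM (reads scaled by unigene length in kilobases and by library size), against 5.04 RPKM over the 28771 unigenes with an assigned gene. Of the 378 members, 214 had at least 20 reads over both libraries (called measured here) and 140 had at least 100. Many were fragments, with a median length of 607.5 bp and a range from 202 to 5225 bp. A kinase domain was annotated in 214 members (56.6%), and 78 had no Pfam domain at all. The descriptions fell into 59 G-type lectin, 59 L-type lectin, 42 cysteine-rich (CRK), 33 wall-associated, 29 CrRLK1L and 11 PERK unigenes, 1 chitin receptor (LysM), 46 that name a leucine-rich kinase without using those words, and 96 others. Another 2 members were RNA helicases (superkiller) that matched through the letters "perk" alone and are not kinases; comp53218_c0 had 1566 reads in brown and 1726 in yellow, and comp54691_c0 had 1248 and 1179.

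A unigene was called different where Fisher's exact test (two-sided) gave a Benjamini-Hochberg adjusted p under 0.05 over all unigenes and the ratio of yellow to brown, scaled by library totals, was beyond 2-fold. Of the 378 members 14 (3.70%) were called, against 4.74% of all 50366 unigenes and 4.01% of those with an assigned gene. The 10 members called higher in yellow were 2.65%, against a background of 3.28%, and the 4 called lower were 1.06%, against 1.47%. Among the 214 measured members 6 were called (2.80%), where the background of measured unigenes with an assigned gene was 3.56%. The shares of called members were thus no larger than those of the table as a whole. The median log2 ratio of the measured members, with 1 read added per library, was 0.01, and 94.4% lay within 2-fold.

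**Figure D1:**
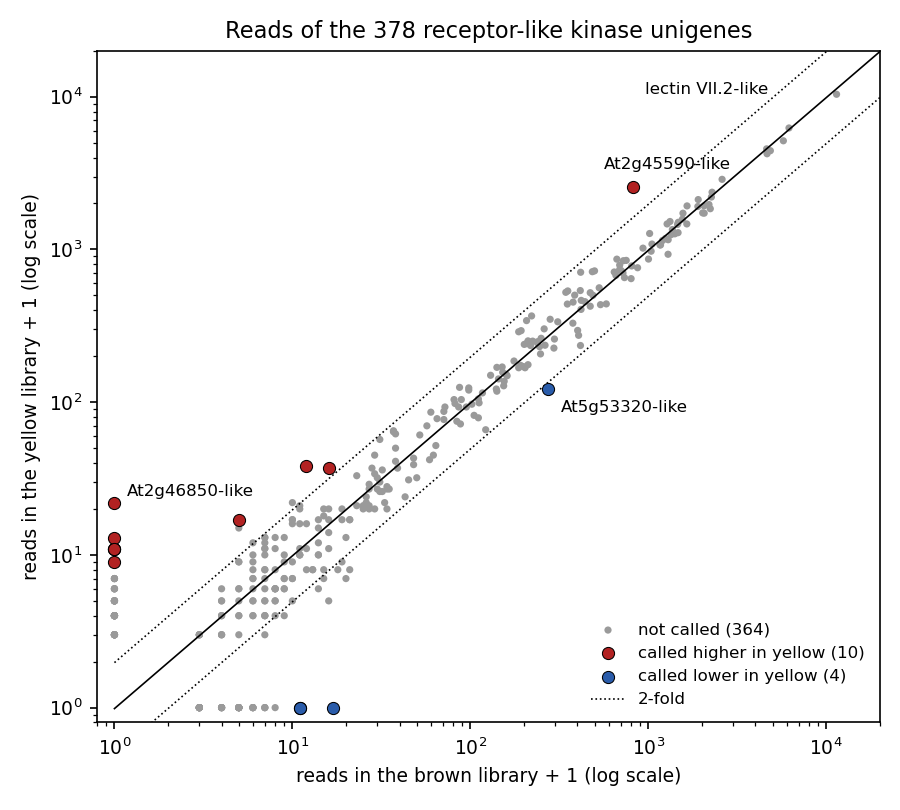
Reads of each of the 378 member unigenes in the brown (x axis) and the yellow library (y axis), with 1 added, both on log scales. The solid line marks equal shares of the library and the dotted lines 2-fold. The 10 red points were called higher and the 4 blue points lower in yellow, and most calls sit at the low end, where a library had no read.

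The member with by far the deepest call was comp10057_c0, a unigene of 832 bp named after the *Arabidopsis* receptor-like serine/threonine kinase At2g45590, with a kinase domain. It lies on gene GSBRNA2T00037311001 (C04, 48067113 to 48069152, plus strand, *B. napus* cv. Darmor-*bzh* annotation as the authors' table gives it). The table gives no exon or UTR for it. The sequences below are shown because this is the only member for which the study designed a quantitative PCR assay, and the end of its reading frame places the unigene at the 3′ end of the coding sequence. They are the forward and the reverse primer and, read as the reverse complement of the listed unigene, the last 150 coding bases with the stop codon in capitals. Neither primer lay within the 399 bases of the unigene in hand.
forward primer: ccgagacaagaaccaagagc
reverse primer: gtcatcacattgccaccaac
end of the reading frame: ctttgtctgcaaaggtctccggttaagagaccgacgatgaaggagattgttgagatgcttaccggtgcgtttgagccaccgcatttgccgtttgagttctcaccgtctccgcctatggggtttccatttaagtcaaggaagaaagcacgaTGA

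comp10057_c0 had 821 reads (41.8 RPKM) in brown and 2553 reads (132 RPKM) in yellow. The yellow library was thus higher by a ratio of 3.15 (95% exact interval 2.92 to 3.42, counting error only), with an adjusted p of 2.03e-207 by Fisher's exact test. It was the third most abundant member by mean level. Among the 140 members with at least 100 reads, 2 were called (1.43%, against 2.85% of all unigenes of that depth), and it was the only one called higher. A second unigene of the same gene, comp50785_c3 (995 bp), had 97 reads in brown and 119 in yellow, a ratio of 1.25 (0.944 to 1.65) that did not pass the test. Both unigenes of this gene therefore stood apart from each other in level and in ratio. Reads of the gene summed to 918 in brown and 2672 in yellow, a ratio of 2.95 (2.74 to 3.19). The similarly named unigene on A04, comp155106_c0, had 0 reads in brown and 3 in yellow, which is within the limit that a count of 0 allows.

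The other call with at least 100 reads went the opposite way. comp52271_c0, named after the probable inactive receptor kinase At5g53320 (A03, 5588350 to 5590267), had 272 reads (5.22 RPKM) in brown and 121 reads (2.36 RPKM) in yellow. The ratio was 0.451 (0.361 to 0.561), with an adjusted p of 1.61e-12 by Fisher's exact test. Inactive kinases of this kind lack residues needed for catalysis and are thought to act through partner proteins.

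Another 2 measured members of the same broad kind were called higher from few reads. comp128610_c0, with the description of the inactive kinase At3g56050 but no annotated kinase domain, had 11 reads in brown and 37 in yellow, a ratio of 3.41 (1.71 to 7.42), and comp6765_c0 of the same gene had 13 and 16 reads. comp25730_c0, a 234 bp unigene named RLK902 (A05), had 15 and 36 reads, a ratio of 2.43 (1.30 to 4.79), whereas the abundant RLK902 unigene comp53741_c0, on another gene, had 4626 and 4556 reads. Unigenes named RLK902 on different genes thus did not move together, and the one called rests on few reads.

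Of the 14 calls 9 had no read in one library, 6 of them in brown and 3 in yellow. Such ratios have no upper end and were bounded with 3 reads in place of 0 in that library. The highest was comp34971_c0, named for the inactive kinase At2g46850 (A03, 10207208 to 10209430), which had 0 reads in brown and 21 in yellow and was at least 7.10-fold higher in yellow. Yet comp22715_c0 of the same gene had 4 reads in brown and 0 in yellow, so the unigenes of this gene differed in direction. With members that lacked reads in a library left out, a count added after seeing the data, 4 were called higher and 1 lower. With the unigenes of each gene summed before the test, 8 of the 274 genes were called higher and 4 lower (4.38%, against 4.89% of all rows tested in this way).

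**Figure D2:**
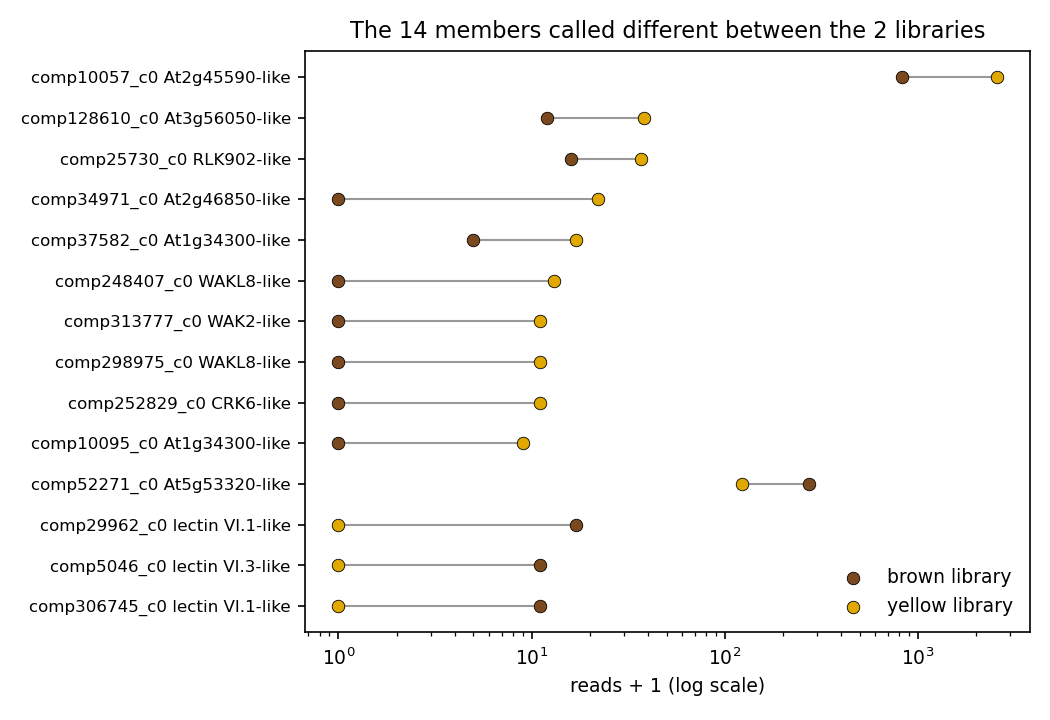
Reads + 1 (log scale) of the 14 called members in the brown and the yellow library, joined by a line; the 10 called higher stand above the 4 called lower. comp10057_c0 (821 and 2553 reads) and comp52271_c0 (272 and 121 reads) are the only calls with more than 100 reads over both libraries.

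Among the wall-associated kinases, 3 of 33 unigenes (9.09%) were called, all higher in yellow and all from 10 or 12 reads. Over all unigenes, 3.28% were called higher. comp248407_c0 and comp298975_c0, named WAK-like 8, had 0 reads in brown and 12 and 10 in yellow. They share gene GSBRNA2T00136689001 (C08, 34737795 to 34739678) with comp375018_c0, which had 0 and 4 reads, so that the gene had 0 reads in brown and 26 in yellow and was at least 8.79-fold higher. This was the largest difference of a wall-associated kinase gene, and all unigenes of the gene went the same way. The adjoining gene on C08 (34737333 to 34737684), also WAK-like 8, had 0 reads in brown and 5 in yellow (comp15544_c0). A WAK-like 5 gene on the same chromosome (34756455 to 34758758) had 5 reads in brown and 11 in yellow. These neighbours were not called, and near-identical WAK copies may share reads, so the split of reads among them is uncertain.

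The third call was comp313777_c0, named WAK2, with 0 reads in brown and 10 in yellow, on an unplaced sequence (66106121 to 66107978). A second unigene of that gene, comp622439_c0, carries the name WAK3 and had 0 and 2 reads. Over the 23 wall-associated unigenes with under 20 reads, 12 had no read in brown (52.2%) and 4 had none in yellow (17.4%), and their reads summed to 49 in brown and 105 in yellow. Among the 141 other members with under 20 reads the shares were 22.0% and 27.0%, and among all such unigenes with an assigned gene 24.8% and 22.0%. The 12 unigenes with no read in brown lay on 9 genes and had 2 to 12 reads each in yellow. Each on its own is close to the limit of detection. They include all 3 unigenes of the called WAK-like 8 gene, with 0 reads in brown and 26 in yellow. The 2 unigenes of the WAK2 gene, with 0 and 12 reads, are also among them. Much of the contrast thus comes from genes already named for their calls, and unigenes of the same gene are not separate cases. A trend across the family was not tested.

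The abundant wall-associated kinases did not follow. comp51956_c1 (WAK-like 9) had 1037 reads (14.8 RPKM) in brown and 973 reads (14.1 RPKM) in yellow. comp49301_c0 (WAK-like 14) had 704 and 725 reads. comp39996_c1 (WAK-like 22) had 143 and 141 reads. None of the 10 measured wall-associated unigenes was called, and their median log2 ratio was -0.06, with the values between -0.89 and 0.44.

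**Figure D3:**
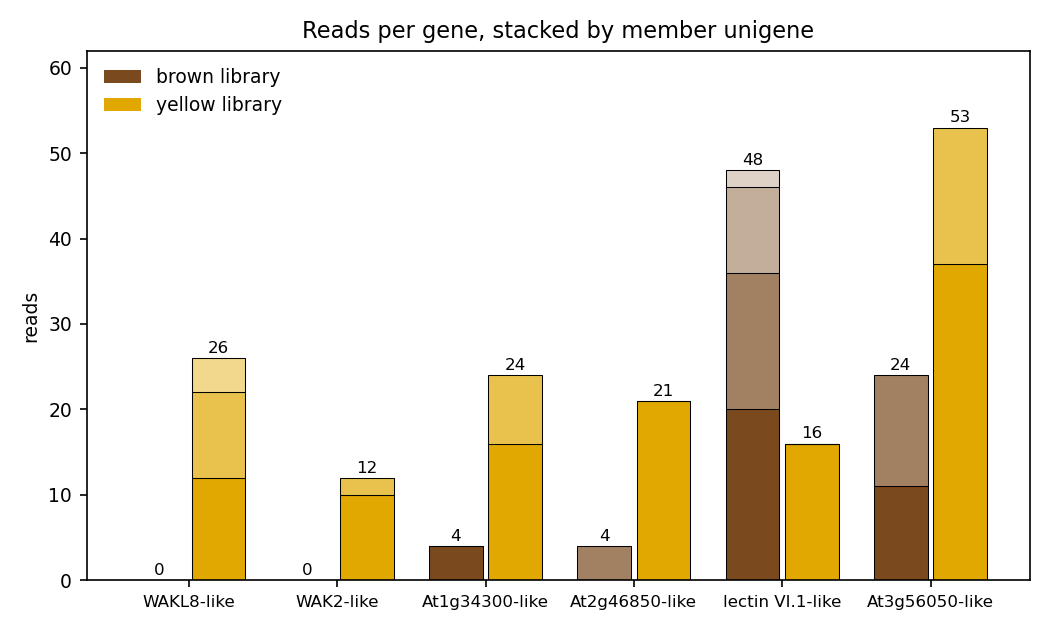
Reads per gene in the brown and the yellow library for 6 genes that carry called members, with the member unigenes of a gene stacked in shades and the sum above each bar. WAK-like 8 (0 and 26 reads) and WAK2 (0 and 12) had no read in brown; the lectin kinase VI.1 gene (48 and 16) is the only one of these that is higher in brown.

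Of the 59 L-type lectin unigenes 3 (5.08%) were called, all lower in yellow, where 1.47% of all unigenes were called lower. They made up 3 of the 4 members called lower. All were of class VI, and each had 16 reads or fewer. comp29962_c0 and comp306745_c0, named lectin receptor kinase VI.1, had 16 and 10 reads in brown and 0 in yellow. With comp5567_c0 (20 and 16 reads) and comp356216_c0 (2 and 0 reads) they make up gene GSBRNA2T00024985001 (A01, 21735173 to 21737320), whose reads fell from 48 in brown to 16 in yellow, a ratio of 0.338 (0.179 to 0.606). The third was comp5046_c0, named lectin receptor kinase VI.3 (C09, 15315064 to 15320615), with 10 reads in brown and 0 in yellow, at least 3.29-fold higher in brown. In *Arabidopsis*, VI.3 dampens the response of germinating seeds to abscisic acid. Over the 8 class VI unigenes the reads summed to 464 in brown and 362 in yellow, and the 3 that were measured all had ratios below 1, none of them called.

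Of the L-type lectin kinases with more reads, none was called in either direction. All 3 class VIII unigenes had an adjusted p under 0.05 within 2-fold and were higher in yellow: comp52182_c0 (VIII.1) had 343 reads in brown and 523 in yellow, a ratio of 1.55 (1.35 to 1.78). comp46504_c0 (VIII.2) had 690 and 789 reads, and comp52895_c0 (VIII.2) 751 and 847 reads. comp51625_c0 (VII.1) went the other way, with 400 and 294 reads. The abundant comp53486_c0 (IV.2) was nearly level, with 1048 and 1084 reads.

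The most abundant member by far was comp47395_c0, with 436 RPKM (11434 reads) in brown and 401 RPKM (10375 reads) in yellow, which was 17.0% and 15.2% of the members' summed RPKM. Its description is lectin receptor kinase VII.2, but its only annotated domain is a legume lectin domain and it has no kinase domain. No annotated domain of this unigene thus bears out its description as a receptor kinase. A kinase domain was annotated in 31 of the 59 L-type lectin unigenes (52.5%), but many of these were fragments, with a median length of 580 bp. comp47395_c0 was longer, at 1112 bp, and its assigned gene (C06, 6615718 to 6616542) spans less than the unigene. Whether it encodes a receptor kinase was not tested. Without comp47395_c0 the L-type lectin kinases summed to 160.2 RPKM in brown and 158.2 RPKM in yellow.

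Of the 59 G-type lectin unigenes 2 (3.39%) were called, both higher in yellow and both on 1 gene. Over all unigenes, 3.28% were called higher. comp37582_c0, named At1g34300 (A07, 2088016 to 2090547), had 4 reads in brown and 16 in yellow, and comp10095_c0 had 0 and 8. The gene thus had 4 reads in brown and 24 in yellow, a ratio of 6.09 (2.09 to 24.1). With median-ratio scaling neither unigene was called. The summed gene At1g61480 went the other way, with 8 reads in brown and 0 in yellow from unigenes that were not called on their own. The best measured G-type kinase, comp52444_c0 (SD1-8), had 2061 reads in brown and 1727 in yellow, a ratio of 0.850 (0.797 to 0.907). The next, comp53634_c0 (SD3-1) with 933 and 1019 reads and comp53626_c0 (SD2-2) with 689 and 736 reads, did not pass the test.

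In the cysteine-rich family 1 of 42 unigenes was called (2.38%, against 4.74% of all unigenes). It was comp252829_c0, named CRK6 (C08, 8448916 to 8450710), with 0 reads in brown and 10 in yellow. Over all 4 unigenes assigned to that gene, the other 3 of them not members, the reads summed to 17 in brown and 24 in yellow, a ratio of 1.43 (0.738 to 2.84) that was not called. The CRK with most reads went slightly the other way. comp45366_c0 (CRK10) had 1291 reads (29.2 RPKM) in brown and 929 reads (21.3 RPKM) in yellow, a ratio of 0.730 (0.670 to 0.795) that passed the p but not the fold threshold. comp43060_c0 (CRK29) had 121 and 65 reads. The other well covered members, comp45596_c0 (CRK22) with 419 and 463 reads and comp51824_c0 (CRK24) with 200 and 238 reads, did not pass the test. The median log2 ratio of the 13 measured CRKs was -0.23, the lowest of the families with 10 or more measured members. Another 3 unigenes, of 1 CRK gene on A09, none of them called alone, summed to 17 reads in brown and 38 in yellow, and that sum was called higher.

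No CrRLK1L unigene was called among 29, of which 23 were measured. FERONIA, the receptor of RALF peptides, was represented by 8 unigenes on 4 genes. The main copy comp54274_c0 on C08 had 4650 reads (59.1 RPKM) in brown and 4231 reads (54.6 RPKM) in yellow, a ratio of 0.923 (0.885 to 0.963). The copies with fewer reads all had ratios above 1: on A03 the gene had 208 and 320 reads, a ratio of 1.56 (1.31 to 1.87), and on A01 it had 106 and 149 reads, a ratio of 1.43 (1.10 to 1.85). On A09 it had 23 and 36 reads, a ratio of 1.59 whose interval (0.916 to 2.81) includes 1. Over all 4 genes the reads summed to 4987 in brown and 4736 in yellow, so the total followed the C08 copy. Reads shared among these close copies may have been split by the counting.

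Among the relatives of FERONIA with many reads, ratios lay on both sides of 1. comp54582_c0 (HERK1, which promotes cell elongation in *Arabidopsis*) had 2283 reads in brown and 2369 in yellow, and a second HERK1 copy, comp51913_c0, had 1474 and 1505. A HERK1 copy with few reads, comp53557_c0, had 19 and 12 and was not called. comp54639_c2 (THESEUS1, which senses damage to the cell wall) had 1646 and 1468 reads, and comp48451_c0 (At5g24010) 2263 and 2203 reads. comp53557_c1 (At5g59700) was lower in yellow, with 580 and 439 reads, a ratio of 0.768 (0.677 to 0.871) that passed the p but not the fold threshold. The summed level of the family was 281.8 RPKM in brown and 281.2 RPKM in yellow.

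None of the 11 PERK unigenes was called. comp51962_c0, PERK1, known in *B. napus* as a kinase induced by wounding, had 2231 reads in brown and 1847 in yellow, a ratio of 0.840 (0.789 to 0.894). comp51998_c0 (PERK14) had 192 and 293 reads, a ratio of 1.55 (1.29 to 1.87). These were the only PERKs with an adjusted p under 0.05, and they went opposite ways. The other abundant members, comp51386_c0 (PERK13) with 1460 and 1457 reads and comp54246_c0 (PERK9) with 1410 and 1265 reads, did not pass the test. The chitin receptor CERK1 (comp47157_c0) had 160 reads in brown and 148 in yellow, a ratio of 0.939 (0.745 to 1.18).

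**Figure D4:**
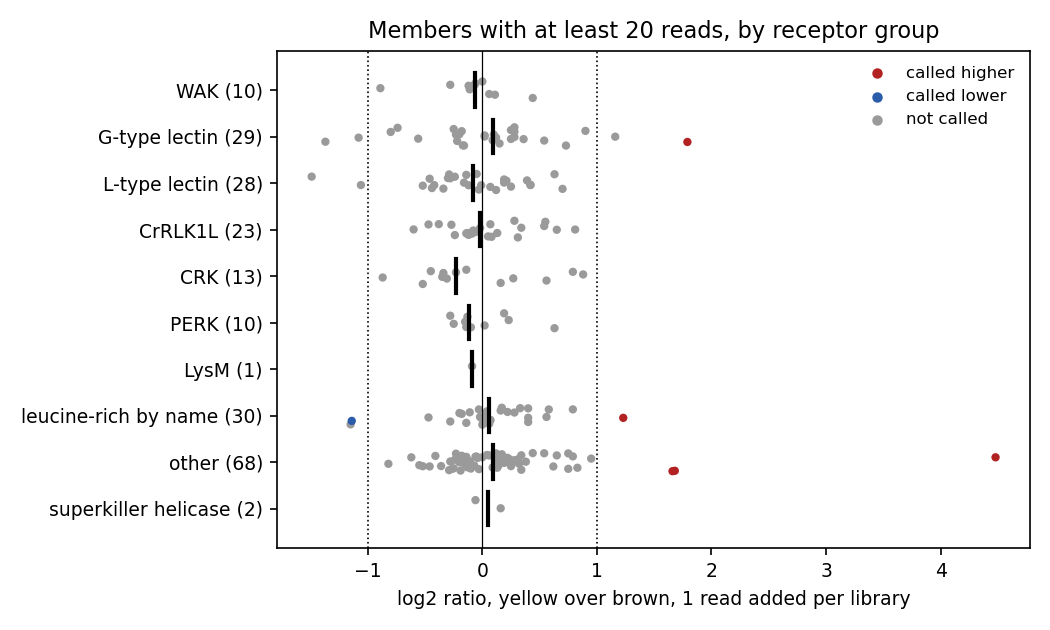
Log2 ratio of yellow to brown (1 read added per library) of the 214 members with at least 20 reads, by receptor group with the number of members in parentheses; each point is a unigene, the black bar is the group's median, and dotted lines mark 2-fold. Medians of the groups lie between -0.23 (CRK) and 0.10 (other).

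HAIKU2, which controls endosperm growth and seed size in *Arabidopsis*, had 1275 reads (16.4 RPKM) in brown and 1468 reads (19.2 RPKM) in yellow (comp53245_c0), a ratio of 1.17 (1.08 to 1.26). The other HAIKU2 unigenes had few reads, comp290783_c0 with 3 in brown and 4 in yellow and comp37218_c0 with 6 and 4. The main ALE2 copy, comp54422_c0 on C09, had 6178 and 6242 reads, a ratio of 1.02 (0.989 to 1.06). A further 2 ALE2 copies were slightly higher in yellow: comp54386_c1 on C03 had 1017 and 1271 reads, a ratio of 1.27 (1.17 to 1.38), and comp55282_c0 on C09 had 724 and 843 reads. All 4 ALE2 unigenes had ratios above 1, the highest being that of comp43899_c0 (28 and 44 reads), 1.59 (0.971 to 2.66), which did not pass the test. HSL1, a leucine-rich relative of the abscission receptor HAESA, had 14 unigenes on 11 genes whose reads summed to 3513 in brown and 3564 in yellow. That sum includes comp47211_c0 (720 and 701 reads), a 4744 bp unigene longer than its assigned gene (A07, 17474970 to 17478035). The best covered HSL1 unigene, comp55055_c0, had 1556 and 1578 reads. Another, comp54603_c0, had 414 and 537, a ratio of 1.32 with an adjusted p of 3.77e-04 by Fisher's exact test, within 2-fold.

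Below the fold threshold, 49 of the 378 members, and 17.5% of all unigenes with an assigned gene, had an adjusted p under 0.05, with ratios from 0.545 to 1.89; 29 were higher and 20 lower in yellow. The leucine-rich kinases found by name were uneven, with 8 higher and 1 lower. The split by direction over all unigenes was not counted, and the unevenness was not tested. Over the 30 measured unigenes of this group the median log2 ratio was 0.06, with 18 above 0 and 12 below. Among those higher, comp51964_c0 (At5g67200) had 484 reads in brown and 714 in yellow, and comp54005_c0 (At2g26730) 498 and 723. The lower one was the abundant comp50051_c0 (At3g08680), with 4855 and 4431 reads (75.8 and 70.2 RPKM), while comp53397_c0 (At1g27190) was level at 1899 and 1911 reads. With such depth a small shift between libraries passes a test of counting error, and no spread between seed batches could be set beside it.

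The 96 remaining unigenes include kinases that, in *Arabidopsis*, lie in the cytoplasm and carry no outer domain. Of the 96, 9 had an annotated leucine-rich repeat domain, so this group is not free of leucine-rich receptors. Together the 96 summed to 756.8 RPKM in brown and 855 RPKM in yellow, and to 714.9 and 722.9 RPKM without comp10057_c0. After comp10057_c0 and the main ALE2 copy, the most abundant by mean level were comp47898_c0 (At1g80640), with 55.4 RPKM in brown and 50.4 RPKM in yellow, and comp55329_c0 (At5g57670), with 54.1 and 49.2 RPKM. Of the members within 2-fold, comp53886_c0, named receptor-like protein kinase 2, was among the most unequal, with 416 reads in brown and 708 in yellow, a ratio of 1.73 (1.53 to 1.95). comp53352_c0, described as a nodulation receptor kinase, also carries a cytochrome b561 domain and had 2059 and 1929 reads. At 5225 bp it is longer than its assigned gene (C02, 8721486 to 8724098). Whether both domains and all these reads belong to 1 transcript was not tested.

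**Figure D5:**
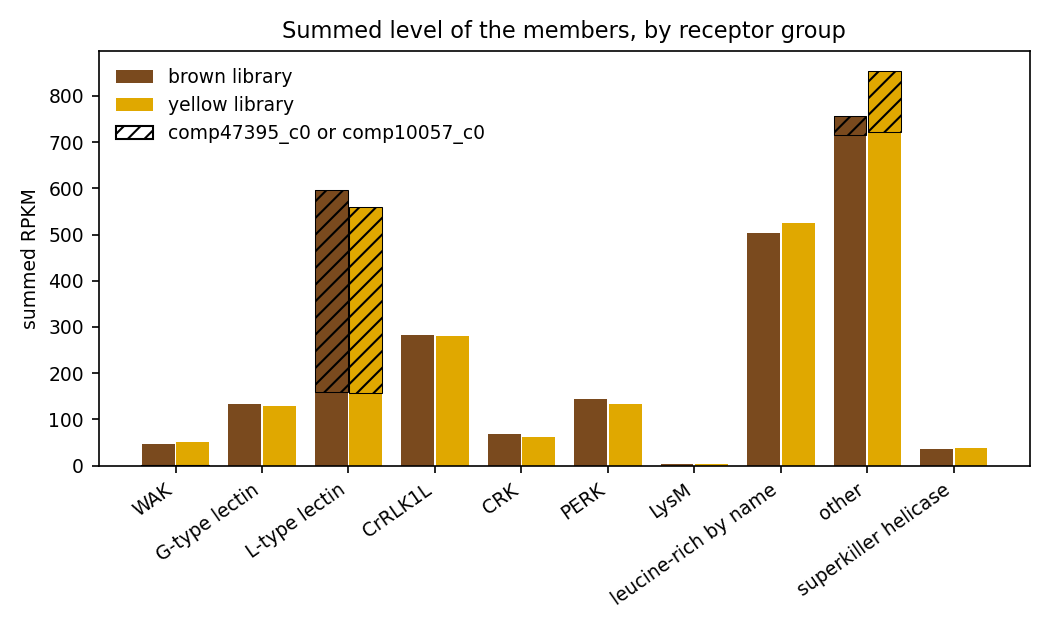
Summed RPKM of the members by receptor group in the brown and the yellow library. Hatching marks the share of comp47395_c0 (L-type lectin) and of comp10057_c0 (other), the latter rising from 41.8 to 132 RPKM.

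The A and C subgenomes carried similar numbers of members, 178 and 176, and 24 lay on unplaced sequences. The measured members had a median log2 ratio of -0.02 on A and 0.04 on C. On A 4 members were called higher and 3 lower, on C 5 and 1. As a further comparison, the 282 leucine-rich repeat receptor kinases had 11 calls (3.90%) and a median log2 ratio of 0.19, with 129 of 179 measured unigenes above 0, where the members had 109 of 214. The 670 unigenes with a kinase domain that were not members, 142 of them leucine-rich repeat receptor kinases, had 14 calls (2.09%) and a median of -0.01. The difference between these sets was not tested.

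Genes that work with these receptors were counted from lists of Swiss-Prot names. As a background, 3.56% of measured unigenes with an assigned gene were called in either direction. The lists are small, and their shares were not tested against it. Of 13 measured RALF unigenes, the ligands of the FERONIA group, 1 was called: comp68161_c0 (RALF-like 27) fell from 223 reads in brown to 72 in yellow, a ratio of 0.328 (0.248 to 0.429). Of the 8 Rop exchange factors, which pass the FERONIA signal to small GTPases, 2 were called lower, both RopGEF2. comp43436_c0 had 159 reads in brown and 52 in yellow, and comp44160_c1 had 104 and 46. None of the 3 measured LORELEI-like proteins, the FERONIA chaperones, 4 respiratory burst oxidases, 26 receptor-like cytoplasmic kinases or 9 SERK co-receptors was called. Their medians were -0.51, -0.03, -0.06 and -0.19 on the log2 scale.

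Of 40 measured pectin methylesterases, which shape the pectin that WAKs bind, 5 were called higher and 1 lower, and the median log2 ratio was 0.01. Over all 52, measured or not, 6 were called higher and 1 lower. The background for measured unigenes was the same 3.56%. The most abundant of those called higher, comp55478_c0 (pectinesterase 16), had 15194 reads in brown and 34630 in yellow, a ratio of 2.31 (2.27 to 2.36). Of the 111 U-box ligases none of the 77 measured was called (median -0.08), and 1 higher and 2 lower calls fell below 20 reads. None of 7 measured CLE peptides, ligands of leucine-rich receptors, was called either, although comp32780_c0 (CLE12), with 0 reads in brown and 18 in yellow, was called below the minimum of 20 reads.

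Markers of seed tissues moved unequally between the libraries. The background of calls was again 3.56% of measured unigenes with an assigned gene. Of 22 measured unigenes of the maturing embryo (napins, cruciferins and oleosins), 17 were called higher and 1 lower in yellow, with a median log2 ratio of 2.38, and their list summed to 535.5 RPKM in brown and 2203 RPKM in yellow. Of 29 measured seed coat markers 3 were called higher and none lower (median -0.05, summed 865.4 and 953.3 RPKM), and none of 4 endosperm (13.9 and 13.7 RPKM) or 19 green tissue markers (3554 and 4597 RPKM) was called. With unigenes under 20 reads included, 1 seed coat marker and 2 embryo markers were called lower. All 4 lists had reads in both libraries, and their part in the differences among the receptor kinases was not tested.

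If biological variation is assumed in place of counting error alone, most calls are lost. With a coefficient of variation of 0.2 between samples, edgeR's exact test called comp10057_c0, comp34971_c0 and comp29962_c0 and no other member. With 0.4 it called none, where 10 members had an unadjusted p under 0.05 beyond 2-fold.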

How the data were processed

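Total RNA of whole seeds gave 1 Illumina library per line. The authors filtered the reads, built a joint assembly with Trinity V2012-10-05 and mapped the reads back to it. For this mapping and counting, tools are not given in the sources used. The authors deposited estimated counts per unigene, which are not scaled, and RPKM values, scaled by unigene length and library total. Estimated counts were rounded to whole numbers, although the plan had assumed whole counts.

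Fisher's exact test (two-sided, numpy 2.4.6, Python 3.11.15) compared the counts, with Benjamini-Hochberg adjustment over all 50366 unigenes. Ratios have 95% exact binomial intervals (SciPy 1.17.1), which leave out variation between seeds. Where a library had 0 reads, 3 reads set the bound. In simulated data with 200 of 50366 unigenes changed 4-fold, 181 (90.5%) were called, with 0 false calls. No spread between seed batches was measured, so the simulation had none to draw on. Its figures, the lack of false calls among them, therefore do not tell how many of the members' calls would recur in other seeds. The share recovered was not taken apart for unigenes under 20 reads, where many of the members' calls lie. With an assumed coefficient of variation of 0.2, 3 members were called, and with 0.4 none. Alternatives used edgeR 4.0.16 and the size factors of DESeq2 1.42.0 (R 4.3.3), the DEGseq formula written out anew, other thresholds, filters and pseudocounts, sums per gene and other readings of the rule.

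Named are every called member, the 3 most abundant of each family and the extremes. Members with gene names known from *Arabidopsis*, and unigenes of 1 gene that differ in direction, are named only in part. Members within 2-fold were also named after their values were seen. The members and lists were chosen with earlier results of these data known.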

Additional observations from a re-analysis of the deposited data

Results flagged for a closer look

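Another 48 unigenes met the same words of the Swiss-Prot description but had no assigned gene, and they were left out of the counts of members. Of these, 1 (2.08%) was called: comp13548_c0, described as the inactive kinase At1g64210, had 0 reads in brown and 9 in yellow, a signal outside the analysed members and above the level in the brown library. It was at least 3.04-fold higher in yellow.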

How the results depend on the processing

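The counts of called members depend on what is taken as error. The 10 members called higher became 4, 2 and 0 with an assumed coefficient of variation of 0.1, 0.2 and 0.4, 5 where unigenes under 20 reads were not tested, 2 with halved counts, 21 at a log2 threshold of 0.58 and 4 without members lacking reads in a library. The 4 called lower became 2, 1 and 0, then 1 under the minimum of 20 reads, 1 with halved counts, 2 at an adjusted p under 0.01 and 1 without members lacking reads. The other alternatives stayed within 1.5 times, and the median stayed between -0.01 and 0.03. Under TMM scaling all 14 calls remained, under median-ratio scaling 12 and with the DEGseq formula 13. The study's own use of DEGseq, at the same main thresholds, gave far fewer calls over all unigenes than Fisher's exact test did here. Calls kept with the formula are therefore not to be read as calls of the study. Why the numbers of calls differ was not tested. All log2 ratios shifted by 0.01 with TMM and by -0.02 with median-ratio scaling. No paired analysis was possible because each line had 1 library.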

Other observations

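Among the 48 unigenes without an assigned gene, 20 had at least 20 reads. Those named here were picked after their values were seen. comp44927_c0, described as the receptor-like kinase At5g20050, had 393 reads in brown and 252 in yellow, a ratio of 0.651 (0.553 to 0.764). ALE2 was represented by 2 further unigenes, comp35062_c0 with 51 and 89 reads and comp35062_c1 with 154 and 187 reads. Both had ratios above 1, as did the ALE2 unigenes with an assigned gene. comp46074_c3, described as CRK10, had 52 reads in brown and 84 in yellow, a ratio of 1.64 (1.15 to 2.36), whereas comp45366_c0, the most abundant of the 4 CRK10 unigenes with an assigned gene, was lower in yellow. None of these was beyond 2-fold.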
